A study of Mus musculus with 6 samples.

Results

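The 30 genes described here belong to B cells and to the plasma cells that B cells become, and they were read in samples sorted as regulatory T cells (Treg cells). The genes were chosen by symbol, and each was read through whichever of its probe sets was brightest on average across the 6 arrays. All 30 had a probe set listed under their name alone, out of 18194 such genes on the array. The symbols were proposed with results of these same arrays known, and so the differences of the 30 genes are given as a description with their standard error and without a p-value, and their counts of calls support nothing beyond themselves.

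RNA came from nTreg cells of C57BL/6 mice, sorted by fluorescence, on 6 arrays in 4 groups. WT mice and Foxo1KO mice, which lack the forkhead transcription factor Foxo1, gave 2 arrays each. Foxo1AAA mice, which carry a constitutively active form of Foxo1, and Foxo1KO, Foxo1AAA mice, which carry that form on the knockout background (written Foxo1KO/Foxo1AAA here), gave 1 array each. The study asked whether transcripts altered by loss of Foxo1 return when the active form is present. The driver of the deletion and of the transgene, the deleted exons, the sorting gates, the age of the mice and the number of mice behind an array are not given in the sources used here. No label says that replicate arrays came from separate mice, so the spread between them may be technical.

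B cells carry membrane antibody on their surface, where it signals through the Cd79a and Cd79b chains, and they are held in their lineage by the transcription factor Pax5. After activation some become plasma cells, which lose much of the surface and lineage programme and secrete antibody. The J chain joins secreted IgM and IgA into polymers, and Mzb1 is a chaperone of the endoplasmic reticulum that helps antibody assembly. T cells do not make antibody, but which cells gave the antibody locus transcripts in these samples was not tested. In bulk RNA, more cells of a type and more RNA per cell cannot be told apart.

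Values are log2 array signals, and a difference of 1 is a doubling. Genes in the lowest 25% by mean over the 6 arrays, below 5.47, were left out of the tests; 27 of the 30 genes passed and 13645 genes were tested in all. Cr2 (mean 5.21), Fcrla (5.26) and Tnfrsf17 (4.51) fell below that level and Ebf1 (5.55) lay just above it. Iglv1 passed although its WT mean of 5.05 lay below the level, that is, through the groups where it was high. The counts of calls below include Iglv1. A gene was called at a limma adjusted p under 0.05 over all 13645 genes. The Foxo1AAA and Foxo1KO/Foxo1AAA groups had no replicate, and their standard errors borrow the spread of the WT and Foxo1KO pairs. For every gene compared with these groups, a difference of genotype and a difference between samples cannot be told apart. The signal flattens near background, so differences of genes with a dim group are understated. Over all probe sets, replicate arrays of WT and of Foxo1KO correlated at 0.996. The pair of arrays carrying Foxo1AAA correlated at 0.994, and either of them against any of the remaining 4 at 0.971 to 0.98.

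Of the 5 antibody and J chain genes, 3 were called higher and 1 lower in Foxo1KO than in WT, and all 5 were called higher in Foxo1AAA. Between Foxo1KO and WT, 5 of the 27 tested genes were called higher, against 11.2% of all tested genes, and 2 lower, against 10.7% (7 in either direction, against 21.8%). Jchain, Igkv8-30, Iglv1, Mzb1 and Cd22 were the 5 called higher, and Ighm and Ralgps2 the 2 called lower. Between Foxo1AAA and WT, 18 were called higher, against 13.4% of all tested genes, and 2 lower, against 14.1% (20 in either direction, against 27.5%). When each array was centred on the median of its tested genes, that split was 14 higher and 4 lower. Between Foxo1KO/Foxo1AAA and WT, 15 were called higher (17% of all tested genes) and 4 lower (13.7%), or 19 in either direction (30.7%). Between Foxo1KO/Foxo1AAA and Foxo1KO, 14 were called higher (19.6%) and 4 lower (20.2%), or 18 in either direction (39.8%). The comparisons share arrays, so their counts are not independent of one another. The median difference of the 27 genes was 0.15 between Foxo1KO and WT, 0.95 between Foxo1AAA and WT and 0.77 between Foxo1KO/Foxo1AAA and WT, beside medians of 0.03, -0.02 and -0.02 over all tested genes.

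Between Foxo1KO/Foxo1AAA and Foxo1AAA few calls were made. By limma 0 of the 27 genes were called higher, against 0.066% of all tested genes, and 1, Igha, was called lower, against 0.00733%, which was 1 gene of 13645; in either direction the share was 0.0733%. At an unadjusted p under 0.05 the counts were 1 higher, against 6.79% of all tested genes, and 5 lower, against 3.21%. Both arrays with Foxo1AAA lay above the other 4 arrays for 16 of the 27 tested genes, against 24.6% of all tested genes, and below them for 4 (Cd72, Vpreb3, Bcl11a and Sdc1), against 28.6%. Both Foxo1KO arrays lay above both WT arrays for 9 of the 27, against 32.7%, and below them for 3, against 27.5%.

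The knockout difference with Foxo1AAA was set against that without it as an interaction. Of the 27 genes 0 were called higher, against 2.81% of all tested genes, and 6 lower, against 3.14% (either direction, 5.94%). At an unadjusted p under 0.05 limma gave 2 higher, against 10% of all tested genes, and 10 lower, against 9.23%. The 6 were Jchain, Igkv8-30, Iglv1, Igha, Cd22 and Siglecg.

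**Figure D1:**
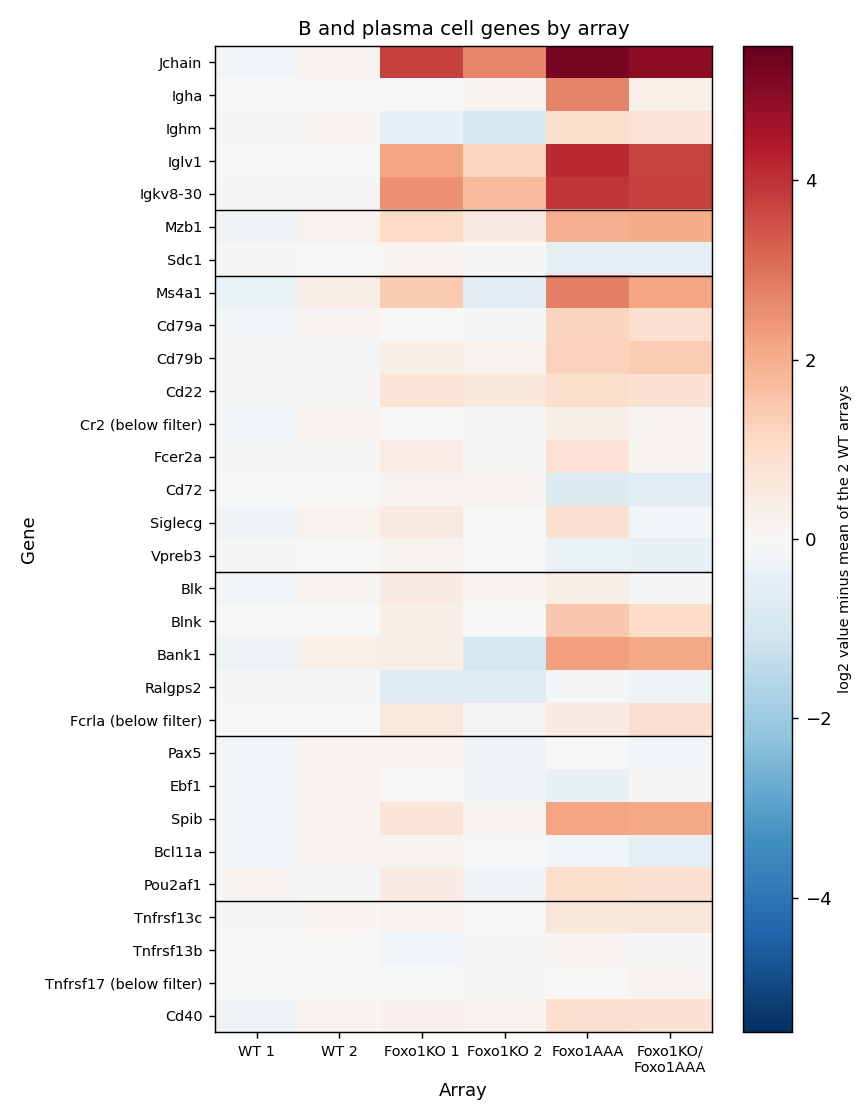
Each row is 1 of the 30 genes and each column 1 of the 6 arrays; colour shows the log2 value minus the mean of the 2 WT arrays, and black lines separate the roles (antibody and J chains, plasma cell, B cell surface, signalling, transcription factors, BAFF receptors and Cd40). Jchain, Iglv1 and Igkv8-30 are red on both Foxo1KO arrays and deepest on the last 2 arrays, whereas Ms4a1 and Bank1 differ between the Foxo1KO arrays.

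Jchain, which encodes the J chain, showed the widest range. It measured 5.35 and 5.62 on the WT arrays, 9.24 and 8.18 on the Foxo1KO arrays, 10.72 on the Foxo1AAA array and 10.4 on the Foxo1KO/Foxo1AAA array. The groups did not overlap, and the Foxo1KO mean lay between WT and both arrays with the active form. The difference from WT was 3.22 in Foxo1KO (SE 0.28; WT 5.49 ± 0.19, Foxo1KO 8.71 ± 0.75, SD, n = 2 each), 5.24 in Foxo1AAA (SE 0.34) and 4.92 in Foxo1KO/Foxo1AAA, or 9.34-fold, 37.7-fold and 30.2-fold. Without Foxo1KO replicate 1 the Foxo1KO difference was 2.69 and without replicate 2 it was 3.75.

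The Jchain promoter is shown because this gene differed most. The 250 bases before its start in RefSeq (GRCm38.p6) hold no octamer, the element ATGCAAAT (or ATTTGCAT on the other strand) that Pou2af1 and its Oct partners act through in B cells, and they are printed in lower case throughout.
Jchain, chr5:88527898-88528147, minus strand: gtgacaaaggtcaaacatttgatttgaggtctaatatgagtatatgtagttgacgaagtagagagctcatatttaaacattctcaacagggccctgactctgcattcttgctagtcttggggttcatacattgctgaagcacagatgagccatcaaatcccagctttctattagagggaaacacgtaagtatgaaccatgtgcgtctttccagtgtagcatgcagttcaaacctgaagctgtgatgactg

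Igkv8-30, a variable segment of the kappa light chain, followed the same order. It measured 6.22 and 6.11 on the WT arrays, 8.7 and 7.92 on the Foxo1KO arrays, 10.09 on the Foxo1AAA array and 9.91 on the Foxo1KO/Foxo1AAA array. Again no group overlapped WT. Its difference from WT was 2.14 in Foxo1KO (SE 0.21) and 3.92 in Foxo1AAA (SE 0.26). Iglv1, a variable segment of the lambda light chain, measured 5.01 and 5.08 in WT, 7.2 and 6.25 in Foxo1KO, 9.15 in Foxo1AAA and 8.75 in Foxo1KO/Foxo1AAA. Its difference from WT was 1.68 in Foxo1KO (SE 0.25) and 4.1 in Foxo1AAA (SE 0.30). Its 3 probe sets differed from WT by 0.26 to 1.68 in Foxo1KO, and with their mean the differences were 0.76 and 2.24, both still called. Variable segments share sequence, so a probe set listed under 1 segment can bind transcripts of others, and these values cannot be assigned to that segment alone.

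Igha, the heavy chain constant region of IgA, stood apart on a single array. It measured 7.38 and 7.39 in WT, 7.35 and 7.47 in Foxo1KO and 7.66 in Foxo1KO/Foxo1AAA, but 10.12 in Foxo1AAA. The Foxo1AAA array was therefore high and the other 5 lay together. The difference was 2.74 between Foxo1AAA and WT (SE 0.12) and -2.47 between Foxo1KO/Foxo1AAA and Foxo1AAA (SE 0.13). All 3 Igha probe sets showed it, with Foxo1AAA above WT by 1.94 to 2.94. As for every difference of a group with 1 array, a difference of genotype and a difference between these samples cannot be told apart.

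**Figure D2:**
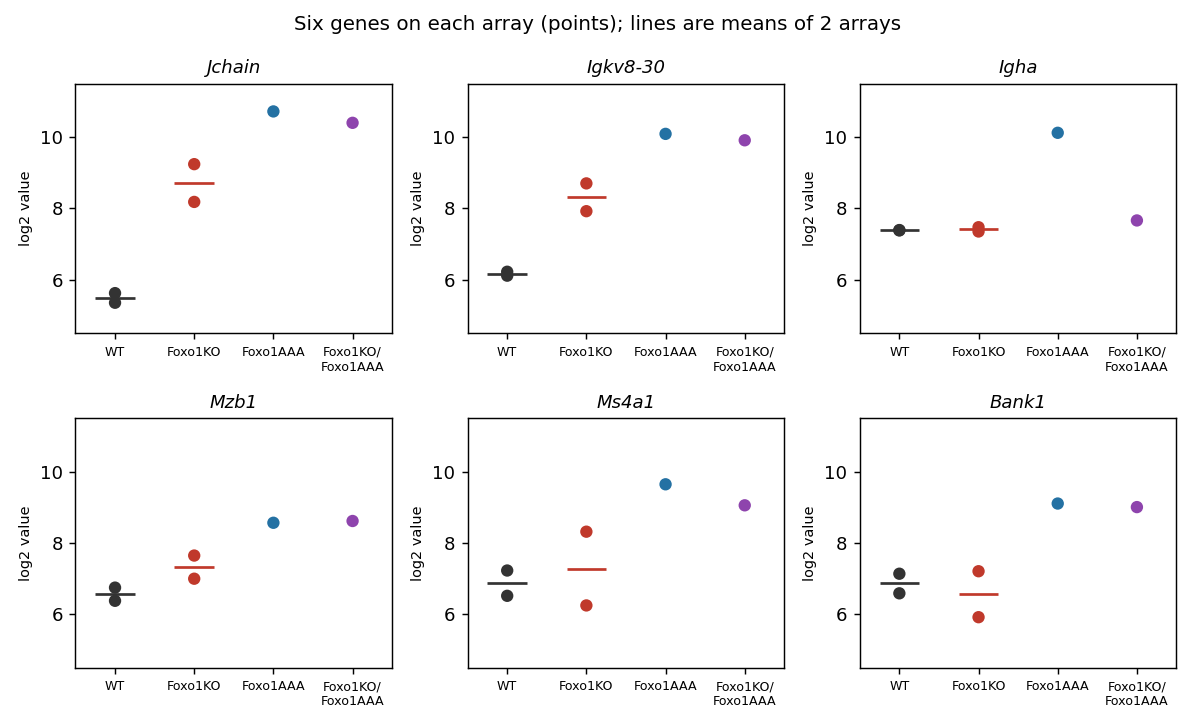
Log2 value of 6 genes on each array by group; each point is 1 array and each line the mean of 2 arrays (WT and Foxo1KO). Jchain, Igkv8-30 and Mzb1 are higher on both Foxo1KO arrays than on both WT arrays, Igha is high only on the Foxo1AAA array at 10.12, and the Foxo1KO arrays for Ms4a1 lie 2.07 apart.

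Ighm, the heavy chain constant region of IgM, gave opposite answers by probe set. The probe set with the highest mean measured 12.42 and 12.61 in WT, 12.09 and 11.62 in Foxo1KO, 13.49 in Foxo1AAA and 13.29 in Foxo1KO/Foxo1AAA. Both Foxo1KO arrays were thus below both WT arrays, by -0.67 (SE 0.15), and both arrays with Foxo1AAA were above. That lower call ended without Foxo1KO replicate 2, where the difference was -0.43, and with the mean of all Ighm probe sets the difference was 0.84, called higher. The call between Foxo1AAA and WT, a difference of 0.98 (SE 0.19), ended with that mean (0.42). A second bright probe set differed likewise, by -1.05 between Foxo1KO and WT and by 1.56 between Foxo1AAA and WT.

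Of the 11 probe sets listed under Ighm alone, 5 were at least 1.56 higher in Foxo1KO than in WT. These 5, grouped after their values were seen, were higher than WT by 1.56 to 2.7 in Foxo1KO and by 1.82 to 3.5 in Foxo1KO/Foxo1AAA, but differed from WT by -0.21 to 1.06 in Foxo1AAA. One of them measured 6 and 6.58 in WT, 9.33 and 8.66 in Foxo1KO, 6.56 in Foxo1AAA and 9.04 in Foxo1KO/Foxo1AAA. The 3 arrays from mice with the Foxo1 knockout were therefore high and the 3 others low, an order that differs from that of Jchain and the light chains, for which Foxo1AAA was among the highest. The other 4 probe sets differed from WT by -0.16 to 0.44 over the same groups. Heavy chain transcripts share sequence and the annotation is dated, so which heavy chain each of these probe sets detects was not tested.

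**Figure D3:**
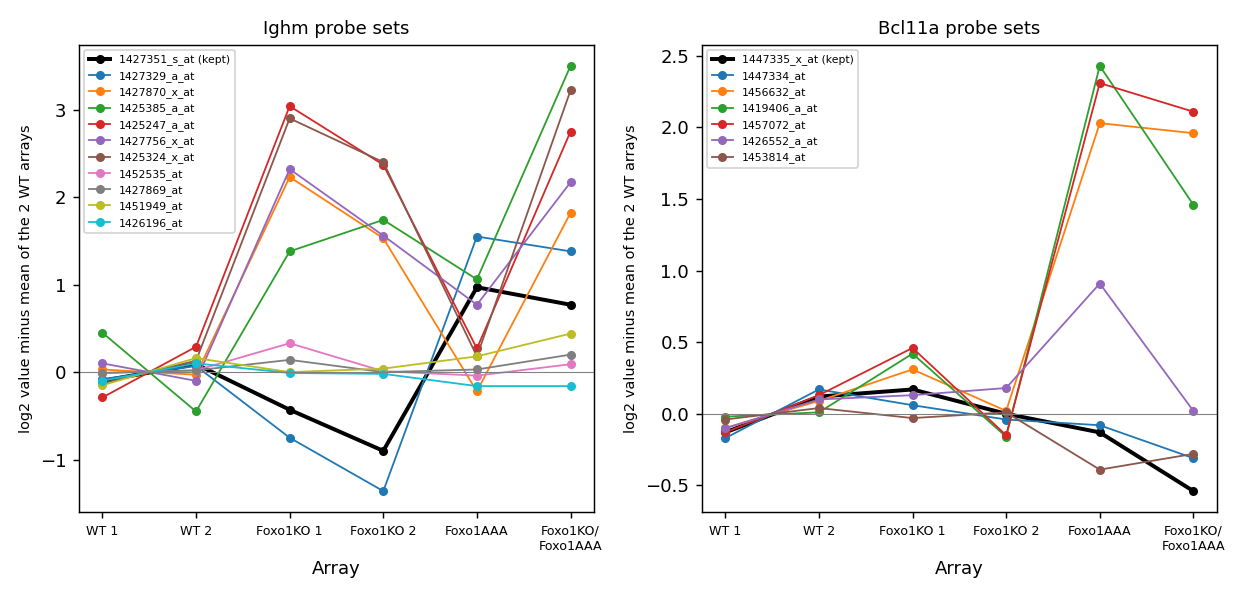
Log2 value minus the mean of the 2 WT arrays for each probe set of Ighm (left, 11 probe sets) and Bcl11a (right, 7 probe sets) on the 6 arrays; thick black lines mark the probe set with the highest mean, and lines only join values of 1 probe set. In Ighm 5 probe sets are high on both Foxo1KO arrays and on the Foxo1KO/Foxo1AAA array, and in Bcl11a 3 are high on both arrays with Foxo1AAA.

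Mzb1 measured 6.38 and 6.75 in WT, 7.65 and 7 in Foxo1KO, 8.57 in Foxo1AAA and 8.62 in Foxo1KO/Foxo1AAA. The Foxo1KO arrays lay above the WT arrays and both arrays with Foxo1AAA above all others. The difference was 0.76 between Foxo1KO and WT (SE 0.20) and 2 between Foxo1AAA and WT (SE 0.25). The Foxo1KO call ended without Foxo1KO replicate 1 (difference 0.44), without WT replicate 1 (0.58), with a robust variance prior and with centred arrays. Sdc1, the plasma cell surface marker syndecan-1, did not follow: its brightest probe set was 7.25 and 7.16 in WT, 7.29 and 7.26 in Foxo1KO, 6.66 in Foxo1AAA and 6.71 in Foxo1KO/Foxo1AAA. It was called lower in Foxo1AAA than in WT by -0.54 (SE 0.11). A second Sdc1 probe set above the level of the filter differed by -0.48. Those below that level differed by 0.29 and 0.75, and with the mean of all 4 the difference was 0.01. Tnfrsf17, the receptor BCMA of plasma cells, stayed between 4.39 and 4.64 on the 6 arrays, below the filter.

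Of the 8 tested surface and receptor genes of the B cell, 6 were called higher and 1 lower in Foxo1AAA than in WT, and 4 higher and 2 lower in Foxo1KO/Foxo1AAA. Of all tested genes, 13.4% were called higher and 14.1% lower in Foxo1AAA, and 17% and 13.7% in Foxo1KO/Foxo1AAA. Ms4a1, which encodes CD20, measured 6.52 and 7.23 in WT, 8.32 and 6.25 in Foxo1KO, 9.65 in Foxo1AAA and 9.06 in Foxo1KO/Foxo1AAA. The arrays with Foxo1AAA were highest, and the Foxo1KO arrays lay on both sides of the WT arrays. The difference was 0.41 between Foxo1KO and WT (SE 0.54), not called, and 2.78 between Foxo1AAA and WT (SE 0.66), called; the second call ended with a robust variance prior. Without Foxo1KO replicate 2 the Foxo1KO difference was 1.45 and was called higher, and without replicate 1 it was -0.62.

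Cd79a and Cd79b, the signalling chains of the B cell receptor, were called higher in Foxo1AAA than in WT by 1.21 (SE 0.14) and 1.26 (SE 0.13). Cd79b measured 8.13 and 8.03 in WT, 8.44 and 8.26 in Foxo1KO, 9.34 in Foxo1AAA and 9.46 in Foxo1KO/Foxo1AAA, and Cd79a lay between 5.53 and 5.81 on the WT and Foxo1KO arrays against 6.88 and 6.53 on the others. For both genes the 2 arrays with Foxo1AAA lay above the other 4. Cd22, an inhibitory lectin of B cells, was called higher in Foxo1KO too: it measured 7.45 and 7.62 in WT, 8.29 and 8.16 in Foxo1KO, 8.49 in Foxo1AAA and 8.39 in Foxo1KO/Foxo1AAA. Its difference from WT was 0.69 in Foxo1KO (SE 0.10) and 0.95 in Foxo1AAA (SE 0.13), and leaving out any of the 4 replicated arrays kept the Foxo1KO difference between 0.6 and 0.77. With the mean of its 2 probe sets the differences were 0.45 and 0.59, both called.

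The other surface genes differed less or in the other direction. Fcer2a, the low affinity IgE receptor CD23, and Siglecg, an inhibitory lectin, were called higher in Foxo1AAA by 0.79 (SE 0.18) and 0.87 (SE 0.21), but in Foxo1KO/Foxo1AAA they differed from WT by 0.11 and -0.15 and were not called. Both Foxo1AAA calls ended with centred arrays (0.62 and 0.7), and that of Fcer2a with the mean of its probe sets (0.26). Cd72, a further inhibitory lectin, measured 8.67 and 8.69 in WT, 8.88 and 8.87 in Foxo1KO, 7.92 in Foxo1AAA and 8.04 in Foxo1KO/Foxo1AAA. It was called lower with the active form, by -0.76 in Foxo1AAA (SE 0.11), on both arrays that were high for Cd79a and Cd79b. Cr2, the complement receptor CD21, lay between 4.99 and 5.49 on all arrays.

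Among genes of B cell receptor signalling, Bank1, a scaffold protein, measured 6.59 and 7.14 in WT, 7.21 and 5.92 in Foxo1KO, 9.11 in Foxo1AAA and 9.01 in Foxo1KO/Foxo1AAA. As for Ms4a1, the Foxo1KO arrays straddled WT and the arrays with Foxo1AAA stood above. The difference was -0.30 between Foxo1KO and WT (SE 0.35), and without Foxo1KO replicate 1 it was -0.95 and was called lower. Between Foxo1AAA and WT it was 2.24 (SE 0.43), a call that ended with a robust variance prior. The adaptor Blnk measured 5.76 and 5.83 in WT, 6.12 and 5.8 in Foxo1KO, 7.28 in Foxo1AAA and 6.78 in Foxo1KO/Foxo1AAA, and was called higher in Foxo1AAA by 1.49 (SE 0.15). Ralgps2, an exchange factor for Ral GTPases, was called lower in Foxo1KO by -0.68 (SE 0.10), and was -0.12 from WT in Foxo1AAA. The kinase Blk was not called in any of the 5 comparisons of groups, and Fcrla stayed below the filter, although 1 of its 3 probe sets was 1.59 higher in Foxo1AAA than in WT.

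Blnk and Vpreb3 were the only members of 21 with a promoter in the RefSeq table whose 250 bases before the start held the octamer ATGCAAAT on either strand; 1.6% of 32851 promoters did. They are shown because they share the element, in capitals, and differed in opposite directions with the active form. Vpreb3, which assists assembly of the early B cell receptor, measured 6.8 and 6.71 in WT, 6.95 and 6.76 in Foxo1KO, 6.38 in Foxo1AAA and 6.34 in Foxo1KO/Foxo1AAA. It differed from WT by -0.38 in Foxo1AAA, not called, and was called lower in Foxo1KO/Foxo1AAA by -0.41. That call ended on leaving out either WT array, and with centred arrays the difference was -0.62. The octamer starts 130 bases before the start of Blnk and 45 before that of Vpreb3 (GRCm38.p6), and a match of letters is not evidence of binding.
Blnk, chr19:40994222-40994471, minus strand: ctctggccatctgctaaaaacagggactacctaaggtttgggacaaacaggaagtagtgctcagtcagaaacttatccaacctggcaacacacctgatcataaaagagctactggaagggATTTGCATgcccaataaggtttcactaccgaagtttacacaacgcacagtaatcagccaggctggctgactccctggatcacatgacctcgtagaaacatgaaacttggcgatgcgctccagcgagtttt
Vpreb3, chr10:75948050-75948299, plus strand: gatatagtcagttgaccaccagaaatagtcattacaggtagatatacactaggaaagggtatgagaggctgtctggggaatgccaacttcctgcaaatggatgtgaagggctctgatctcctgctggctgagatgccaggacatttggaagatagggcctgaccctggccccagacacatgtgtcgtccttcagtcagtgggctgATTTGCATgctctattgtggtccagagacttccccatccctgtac

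The transcription factors of the lineage split. Spib, an Ets factor shared with plasmacytoid dendritic cells, measured 5.56 and 5.83 in WT, 6.41 and 5.85 in Foxo1KO, 7.84 in Foxo1AAA and 7.81 in Foxo1KO/Foxo1AAA. It was called higher in Foxo1AAA, 4.43-fold above WT, and in Foxo1KO/Foxo1AAA by 2.12 (SE 0.21). The Foxo1KO difference of 0.44 was not called, but without Foxo1KO replicate 2 it was 0.72 and was called higher. Pou2af1, the octamer coactivator, was called higher by 0.97 in Foxo1AAA (SE 0.24), a call that ended with centred arrays. Pax5, the factor that defines the lineage, lay between 6.63 and 6.95 on all arrays and differed from WT by -0.03 in Foxo1AAA (SE 0.16), and its other probe set differed by 0.12. Ebf1, which acts with Pax5, differed by -0.40 with its brightest probe set, not called, while its 5 probe sets ranged from -0.40 to 0.96. Only the brightest lay above the level of the filter. Ebf1 was called lower with centred arrays (-0.56) and without WT replicate 1 (-0.53).

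Bcl11a, a zinc finger factor of B cells and plasmacytoid dendritic cells, depended on the probe set. The brightest measured 8.52 and 8.77 in WT and 8.52 in Foxo1AAA, a difference of -0.13. Of its 7 probe sets 3 were higher in Foxo1AAA than in WT by 2.03, 2.43 and 2.31 and in Foxo1KO/Foxo1AAA by 1.96, 1.46 and 2.11. One of these measured 4.47 and 4.66 in WT, 4.88 and 4.59 in Foxo1KO, 6.6 in Foxo1AAA and 6.53 in Foxo1KO/Foxo1AAA. With the mean of the probe sets Bcl11a was called higher in Foxo1AAA, by 1.01. The plot of probe sets by array shows that the brightest was not among those that were high.

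The receptors for BAFF, the survival factor of B cells, gave small differences. Tnfrsf13c, the BAFF receptor, measured 6.65 and 6.84 in WT, 6.95 and 6.73 in Foxo1KO, 7.36 in Foxo1AAA and 7.42 in Foxo1KO/Foxo1AAA, and was called higher by 0.61 in Foxo1AAA (SE 0.14), a call that ended with centred arrays. Tnfrsf13b, the receptor TACI for BAFF and its relative APRIL, lay between 10.03 and 10.28 on all 6 arrays and was called in none of the 5 comparisons. Cd40, the receptor for T cell help that macrophages and dendritic cells also carry, was called higher in Foxo1AAA by 0.94 (SE 0.16), or by 0.5 with the mean of its probe sets. Tnfsf13b, which encodes BAFF itself and is no member, was higher in Foxo1KO by 0.34 (limma adjusted p = 0.034) and in Foxo1AAA by 0.64 (adjusted p = 0.006).

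The Foxo1KO arrays differed from each other in these genes. Foxo1KO replicate 1 was higher than replicate 2 for 24 of the 27 tested genes, against 40.9% of all tested genes, with a median difference of 0.29 against -0.04. The WT arrays differed in the same way but by less: replicate 2 was higher than replicate 1 for 20 of the 27, against 50.2%, with a median of 0.19. The gap was 2.07 for Ms4a1, 1.29 for Bank1, 1.06 for Jchain, 0.94 for Iglv1 and 0.78 for Igkv8-30. The 9 measured MHC class II genes, whose products B cells and other antigen presenting cells carry, averaged 0.5 above WT on replicate 1 and -0.09 on replicate 2, means that include H2-Ob, which fell by 3.95 in Foxo1KO (limma adjusted p = 1.1e-05). Of the 9, 5 were called higher in Foxo1KO, against 11.2% of all tested genes. Among them were H2-Aa, at 10.89 and 9.63 against a WT mean of 8.65, and Cd74, at 8.65 and 8.37 against 7.43. The 12 measured myeloid genes averaged 0.77 above WT on replicate 1 and 0.21 on replicate 2. Their part in the differences between Foxo1KO and WT was not tested. Jchain, Igkv8-30, Iglv1 and Cd22 stayed called without replicate 1.

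All lists of genes that are not members were drawn up with earlier results of these data known. Genes were named from them mainly for their called differences, so their adjusted p-values are descriptive. A list of other B cell genes was read beside the members. Of 26 tested, 12 were higher and 1 lower in Foxo1AAA than in WT (median 0.41), and 4 higher and 5 lower in Foxo1KO (median 0.07). Both counts of higher genes include Mef2c. Its WT mean of 5.4 lay below the level of the filter, and it passed through the groups where it was high. Among all tested genes, 13.4% were higher and 14.1% lower in Foxo1AAA, and 11.2% and 10.7% in Foxo1KO. Fcmr, the Fc receptor for IgM, rose by 2.65 in Foxo1AAA (limma adjusted p = 0.00054), Cd24a, an antigen of B cells and other leukocytes, by 2.25 (5.5e-05), and Napsa, an aspartic protease, by 2.16 (0.00016). Ly86, which pairs with the Toll-like receptor relative Cd180 on B cells and is also made by myeloid cells, rose by 3 (0.00075). Fcgr2b, the inhibitory Fc receptor, fell by 0.69 (0.0077). In Foxo1KO, Fcrl1, an Fc receptor-like protein of B cells, fell by 0.98 (adjusted p = 0.00058), and Irf8, a factor of B and myeloid cells that T cells can also induce, rose by 1.53 (3.2e-05). Of 4 tested germinal centre genes, Bcl6 was lower in Foxo1AAA, by -0.56 (limma adjusted p = 0.011), and Mybl1 was higher, by 1.13. Mybl1 had a WT mean of 4.84 and passed the filter through the groups where it was high, so its p-value is left out. Gcsam, Rgs13 and Mef2b lay below the filter.

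Genes of the plasma cell and of antibody secretion, many of them active in other secretory cells, were called higher than in WT more often than lower. Of 20 tested, 9 were higher and 2 lower in Foxo1KO (median 0.34), and 10 higher and 1 lower in Foxo1AAA (median 0.41). The shares of all tested genes called higher and lower were 11.2% and 10.7% in Foxo1KO, and 13.4% and 14.1% in Foxo1AAA. Between Foxo1KO/Foxo1AAA and Foxo1KO, 8 were higher and 5 lower (median 0.02), against 19.6% and 20.2%. Ell2 and Slamf7 had the largest Foxo1KO differences, 1.95 and 1.83. They differed by -1.09 and -1.03 between Foxo1KO/Foxo1AAA and Foxo1KO, where Jchain and Mzb1 differed by 1.69 and 1.29. The list averaged 0.44 above WT on Foxo1KO replicate 1 and 0.52 on replicate 2. Prdm1, the factor Blimp-1 that directs plasma cells and is also made by effector Treg cells, rose by 1.27 in Foxo1KO (limma adjusted p = 6.5e-05) and by 1.15 in Foxo1AAA (0.00061). Xbp1, the secretory pathway regulator, rose by 0.38 in Foxo1KO (0.022) and differed by -0.03 in Foxo1AAA (0.87). Irf4, shared by plasma cells and effector Treg cells, fell by 0.74 in Foxo1KO (0.0016) and rose by 0.97 in Foxo1AAA (0.0016). Eaf2, an elongation factor partner found in B cells, was at 4.83 on both WT arrays and at 5.35 and 4.99 on the Foxo1KO arrays. These values lay below the level of the filter. It was at 7.34 and 7.4 on the arrays with Foxo1AAA and passed only through them. Its difference of 2.51 in Foxo1AAA is therefore given without a p-value, although the 10 genes counted as higher in Foxo1AAA include it.

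Many markers of other cells were higher on the arrays with Foxo1AAA, as many members were, and some were lower. The summed linear signal of the 12 measured myeloid genes was 1330 and 1646 in WT, 2764 and 1785 in Foxo1KO, 12972 in Foxo1AAA and 14839 in Foxo1KO/Foxo1AAA. All 10 tested myeloid genes were higher in Foxo1AAA than in WT, where 13.4% of all tested genes were higher and 14.1% lower. The median of the 10 was 3.21, and they included Csf1r (3.34, limma adjusted p = 8.8e-05) and Adgre1 (3.34, 2.7e-05). Itgam and S100a8 lay below the filter. The summed signal of the 9 MHC class II genes was 2096 and 2347 in WT, 4450 and 2559 in Foxo1KO, 10446 in Foxo1AAA and 11316 in Foxo1KO/Foxo1AAA. Of 6 tested genes of plasmacytoid dendritic cells, which also carry Spib and Bcl11a, 3 were higher in Foxo1AAA (Tcf4, Ly6d and Siglech) and 1 lower (Pacsin1). The part of these cells in the levels of Blnk, Cd40, Spib and Bcl11a, which B cells share with them, was not tested. Of 6 tested dendritic cell genes, 4 were higher and 1, Zbtb46, lower in Foxo1AAA than in WT. Of 5 CD8 T and NK genes, 2 were higher and 1, Cd8a, lower. Of 4 erythroid genes, 2 were higher (Car2 and Slc4a1) and 0 lower. Klrd1, a higher CD8 T and NK gene, and Slc4a1 had WT means of 5.38 and 5.42, below the level of the filter. T cell and Treg genes had a summed signal of 57726 to 64059 over the 6 arrays. Of 12 tested, Ctla4 rose and Cd28, Cd5 and Cd4 fell in Foxo1KO, where 11.2% of all tested genes were higher and 10.7% lower. Of T cell and Treg markers, Cd3e measured 10.54 to 10.82 and Il2ra 11.15 to 11.48. Foxp3, read through its 1 probe set, lay below the filter, between 5.1 and 5.58. How well that probe set detects Foxp3 was not tested.

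**Figure D4:**
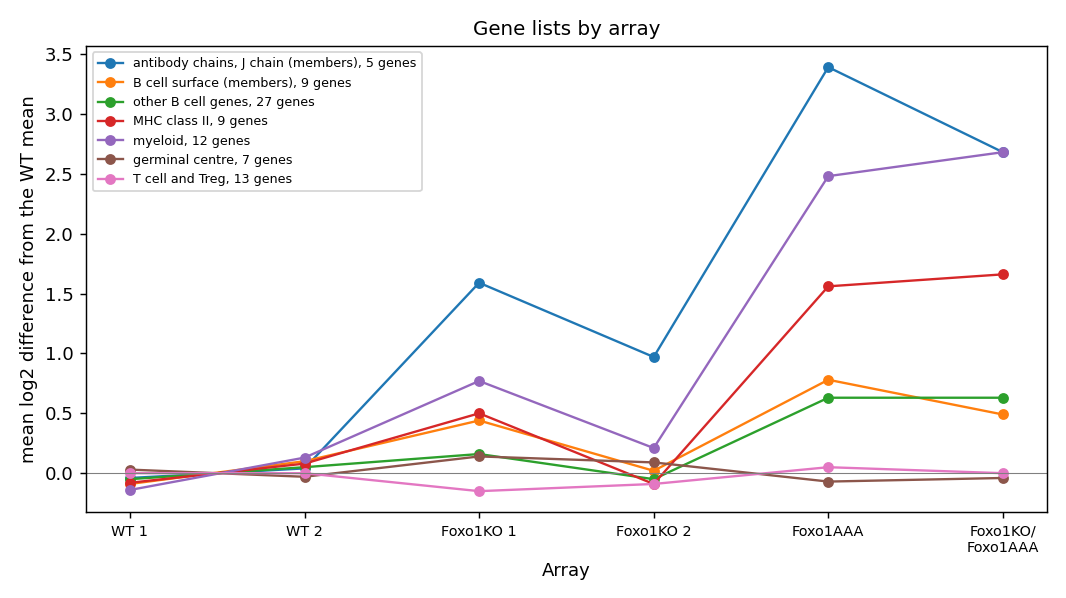
Mean over the genes of a list of the log2 value minus the WT mean, on each of the 6 arrays; lines join values of 1 list. On the Foxo1AAA array the antibody and J chain genes average 3.39, the myeloid genes 2.48, the MHC class II genes 1.56 and the B cell surface genes 0.78, while T cell and Treg genes stay between -0.15 and 0.05 on all arrays.

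The genes outside the list whose values over the 6 arrays most resembled the mean of the 27 tested members were Napsa (Pearson r = 0.995), Pkig (0.991), Plac8 (0.983), H2-Eb1 (0.983), Ccl6 (0.98), Lyz2 (0.978), H2-Ab1 (0.977), Syk (0.977), Ifitm6 (0.976) and Flt3 (0.973), out of 3412 candidates. These correlations over 6 arrays describe a shared order of arrays and carry no test. The 10 include B cell genes, MHC class II genes and the myeloid genes Lyz2 and Ccl6. Plac8 measured 8.17 and 8.61 in WT, 9.96 and 8.83 in Foxo1KO, 12.02 in Foxo1AAA and 12.03 in Foxo1KO/Foxo1AAA, with Foxo1KO replicate 1 above replicate 2, as for Ms4a1.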

How the data were processed

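The authors deposited log2 values for 45101 probe sets on 6 arrays; the submitters' processing notes name RMA, R (version 2.15) and limma (version 3.12.1). RMA in its usual form includes quantile normalization, which would hide a common shift of most transcripts. The platform annotation pairs 34958 probe sets with a single gene, which were used, and 932 with several; 9211 are not in it. The brightest probe set by mean stood for each of 18194 genes, and genes in the lowest 25% were left out. All 6 arrays entered a limma 3.58.1 model (R 4.3.3) of the 4 groups, with 2 residual and 6.59 prior degrees of freedom. Tests were two-sided with Benjamini-Hochberg adjustment over 13645 genes, and the code was tested on simulated data. The members, gene lists and named genes (all members, up to 4 called genes for each list, direction and comparison, and the 10 most alike) were chosen with earlier results of these data known. Alternatives changed the filter, probe set, variance prior, scaling, pairing and arrays included. The number of arrays limits the precision. Promoters came from the RefSeq table (GRCm38.p6).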

Additional observations from a re-analysis of the deposited data

Results flagged for a closer look

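The knockout difference was lower with Foxo1AAA than without it for 6 of the 27 tested members, against 3.14% of all tested genes. Jchain was higher in Foxo1KO than in WT by 3.22 and differed by -0.32 between Foxo1KO/Foxo1AAA and Foxo1AAA, an interaction of -3.54 (SE 0.48). Igkv8-30 gave -2.32 (SE 0.36) and Iglv1 -2.07 (SE 0.43), with knockout differences of 2.14 and 1.68 without the active form and of -0.18 and -0.39 with it. Igha gave -2.49 (SE 0.17), which came from the single Foxo1AAA array. Cd22 gave -0.79 (SE 0.18) and Siglecg -1.26 (SE 0.30). The call of Cd22 ended with centred arrays (-0.8) and without WT replicate 1 (-0.71), Foxo1KO replicate 1 (-0.73) or Foxo1KO replicate 2 (-0.85). That of Siglecg ended with centred arrays (-1.27), without Foxo1KO replicate 1 (-1.03) and with genes taken as the mean of their probe sets (-1.26). Those of Jchain and Iglv1 ended with a robust variance prior, and that of Iglv1 also with centred arrays (-2.08) and with the mean of its probe sets (-1.15). Each of these rests on 1 array for Foxo1AAA and 1 for Foxo1KO/Foxo1AAA.

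Of 38 further probe sets of the antibody loci, 13 were listed with several genes and 12 had a mean above the level of the filter. In Foxo1AAA 9 were at least 1 higher than in WT, against 2.37% of all probe sets, and 4 of those 9 lay below the level of the filter. In Foxo1KO 4 were at least 1 higher, against 1.4%. Of those listed with several kappa genes, 3, named after their values were seen, were higher in Foxo1AAA by 4.18, 3.68 and 3.63. One of them measured 8.85 and 9.63 in WT, 12.39 and 11.64 in Foxo1KO, 12.92 in Foxo1AAA and 12.83 in Foxo1KO/Foxo1AAA, the order seen for Jchain.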

How the results depend on the processing

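With the lowest 50% of genes left out, 14 members were tested and the counts called were 11 between Foxo1AAA and WT, 10 between Foxo1KO/Foxo1AAA and Foxo1KO and 11 between Foxo1KO/Foxo1AAA and WT, in place of 20, 18 and 19. The count between Foxo1KO/Foxo1AAA and Foxo1AAA ranged from 1 to 2 over the replicates left out. The interaction count of 6 became 3 with the mean of all probe sets and 3 with centred arrays; the cause was not tested. With the mean of all probe sets Ighm turned sign in Foxo1KO (0.84). So did Bcl11a in Foxo1AAA (1.01) and in Foxo1KO/Foxo1AAA against Foxo1KO (0.53) and against WT (0.63). With that mean, Sdc1 came near 0 in Foxo1AAA (0.01) and in Foxo1KO/Foxo1AAA (0.08) against WT, and the Cd22 interaction was 0. Centring moved the median of all genes by 0.17, 0.17 and 0.2 in the comparisons of Foxo1AAA with WT and of Foxo1KO/Foxo1AAA with Foxo1KO and WT. The other settings kept every count of calls within 1.5 times. With the replicate number as a block, 7 members were called between Foxo1KO and WT, as without it. Arrays with the same number did not deviate together (correlation -0.096 over 13645 genes, 2 pairs), so the numbers were not taken as pairs. A dim signal in WT limits Jchain and Iglv1, among other members, and the Bcl11a probe sets that were high with Foxo1AAA. Their differences are understated. For the 3 members below the filter any difference would be understated too.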
